A study of Mus musculus with 18 samples.

Results

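The genotype difference in m6A-tagged over input RNA was described for 6295 of the 23038 genes in the tables. The mark m6A is a methyl group on adenosines of messenger RNA, and an antibody against it was used to pull methylated RNA out of a total (input) pool. For each gene and genotype, an m6A-tagged over input ratio was taken as log2((m6A-tagged + 1)/(input + 1)) of the RPKM values. RPKM counts the reads of a gene per kilobase of its length and per M sequenced reads, M being 1e6. The genotype difference is this log2 ratio in Mettl3-deficient cells minus that in wild-type (WT) cells. A positive difference therefore means that the m6A-tagged fraction held more of a transcript, relative to input, in Mettl3-deficient than in WT cells. Genes were compared if their mean over the 6 columns of the tables was at least 10 RPKM, a limit that used no difference between groups. A gene could reach it through the columns of 1 genotype.

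Haematopoietic stem cells (HSCs), the bone marrow cells that renew all blood lineages, were sorted from adult C57BL/6 mice as Lineage- Sca1+ cKit+ CD150+ CD48- cells. The mutant mice were Mx1-cre; Mettl3fl/fl, in which Cre is driven by the interferon-responsive Mx1 promoter, which acts in many cell types besides HSCs. Mice of both genotypes were given 5 doses of 10 µg pIpC, a double-stranded RNA mimic that induces interferon, and were killed 10 days after the last dose, so WT cells had also been exposed to it. The 4 groups used were Mettl3-deficient m6A-tagged, Mettl3-deficient input, WT m6A-tagged and WT input, with 3 libraries each, and the unbound fraction of both genotypes is given beside them. RNA of 3000 sorted cells was used for each sample.

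Mettl3 is the catalytic subunit of the nuclear complex that writes m6A, in which Mettl14 is its partner. Readers of the YTH family bind the mark and alter splicing, export, translation or decay, and erasers such as Alkbh5 remove it. In HSCs the mark is known for its part in differentiation, in control of Myc, and in keeping endogenous double-stranded RNA from triggering innate immune sensors. The comparison addresses which antibody-bound transcripts of HSCs depend on Mettl3.

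Each column of the tables is the authors' mean of 3 libraries, so no spread between libraries, error or test can be given for a difference, and 2-fold is used as a size. Depth was 25.89 to 33.59 M reads per library in Mettl3-deficient m6A-tagged RNA and 9.42 to 30.06 M in Mettl3-deficient input, against 30.32 to 34.99 M in WT m6A-tagged RNA and 28.33 to 37.22 M in WT input. Reads of single libraries could be worked out for low genes. Where such genes averaged 60 to 150 reads, at least 90% of the reads came from 1 library for 7.2% of 363 genes in Mettl3-deficient m6A-tagged RNA and 0.6% of 160 genes in Mettl3-deficient input. In WT m6A-tagged RNA this was so for 67.7% of 294 genes, and in WT input for 15.1% of 351 genes. Reads could be worked out for only 8 of the 6295 genes compared, so these shares describe genes mostly outside the comparison. The part of uneven libraries in the differences below was not tested.

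Mettl3 itself (chromosome 14, 52294841 to 52308741, mm10) had 17.4 RPKM in m6A-tagged RNA and 19.6 RPKM in input of Mettl3-deficient cells, against 36.1 and 36.4 RPKM in WT cells. Its level was lower in both fractions and its genotype difference was small, at -0.15. The gene's value may also include reads from parts that Cre leaves in place, which was not tested. How complete the deletion was cannot be read from these values. Mettl14 lay under the limit, with a mean of 8.21 RPKM. The 12 HSC markers, among them Kit, Slamf1 and Procr, were each above 1 RPKM in both inputs and summed to 1267 RPKM in Mettl3-deficient and 1096 RPKM in WT input. Markers of B cells (5 genes) summed to 91.4 RPKM in Mettl3-deficient and 94.0 RPKM in WT input, of which Cd79b alone held 90.6 and 84.7 RPKM. Of the 5, 4 were under 1 RPKM in Mettl3-deficient input and 2 in WT input. Markers of endothelial and stromal cells (6 genes, 4 of them under 1 RPKM in each input) summed to 72.9 and 38.9 RPKM. Markers of erythroid cells (72.6 and 229 RPKM), megakaryocytes (597 and 1151) and monocytes and macrophages (394 and 687) were lower in Mettl3-deficient input. Those of neutrophils and promyelocytes (9 genes) summed to 1204 RPKM in Mettl3-deficient and 6730 RPKM in WT input, and those of eosinophils and basophils (5 genes, 3 of them under 1 RPKM in Mettl3-deficient input) to 15.5 and 784 RPKM. In bulk samples, fewer cells of a type and less RNA per cell cannot be told apart.

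Over all 6295 genes the genotype difference was centred near 0. Its median was 0.04, 52.4% of genes were above 0, and the 5th and 95th percentiles were -0.86 and 1.13. A difference of 2-fold or more was seen for 460 genes on the higher side (7.31%) and 183 on the lower side (2.91%), and one of 4-fold or more for 30 (0.477%) and 8 (0.127%). Thus 71.5% of the genes past 2-fold were on the higher side, a share of 61.9% (386 higher, 238 lower) under median-ratio scaling of the columns and 54.8% (342 higher, 282 lower) under upper-quartile scaling. The overall median was -0.02 under the first and -0.06 under the second, a shift of -0.10. The log2 ratios themselves were spread less in Mettl3-deficient than in WT cells, with standard deviations across genes of 0.44 and 0.60. Just outside the 10 RPKM limit, Pom121 (mean 9.990 RPKM) had a difference of 1.43, and just inside, Topbp1 (10.003 RPKM) had one of 0.19. The mean of the Mettl3-deficient columns alone was under 10 RPKM for 415 of the 6295 genes, 43 of the 460 and 27 of the 183. That of the WT columns alone was under it for 172, 12 and 12.

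**Figure D1:**
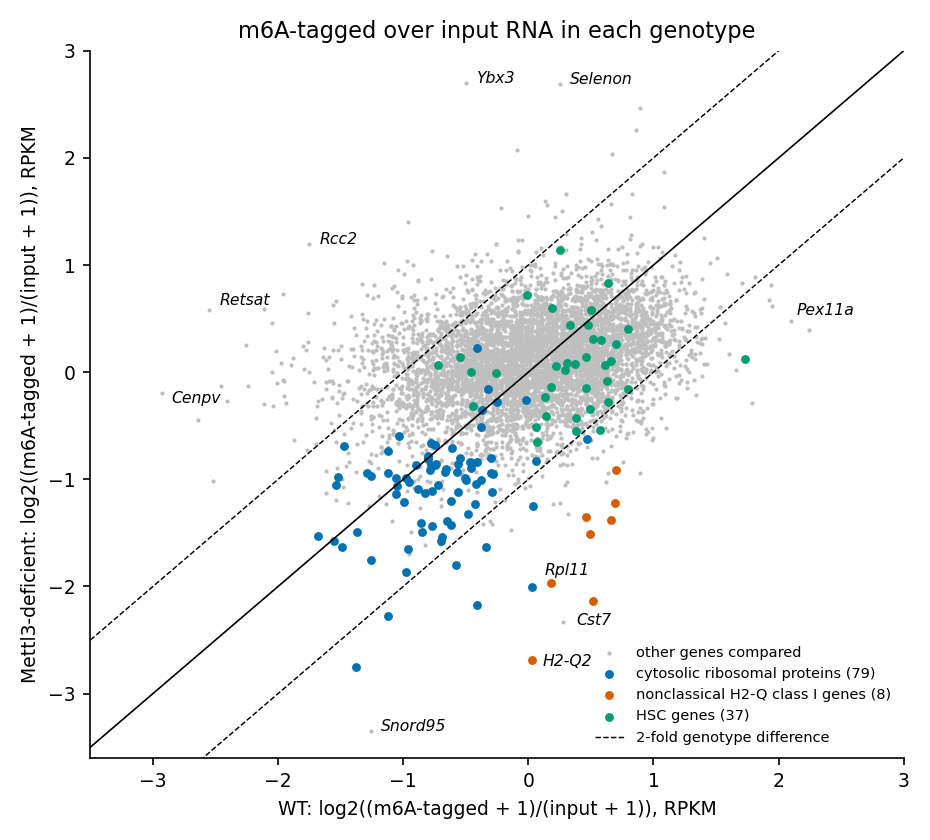
Each point is a gene, with the WT log2 ratio of m6A-tagged over input on the x axis and the Mettl3-deficient ratio on the y axis (RPKM + 1). The solid line marks equal ratios and the dashed lines a 2-fold genotype difference. The 8 H2-Q genes lie below the lower dashed line, most ribosomal protein genes lie below 0 in both genotypes, and Ybx3 and Selenon lie at the top.

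Most genes past 2-fold had ratios of opposite sign in the 2 genotypes. Of the 460 on the higher side, 384 did so (83.5%, against 38.0% of all genes), and 225 stayed within 2-fold of input in both (48.9%, against 88.8%). The median log2 ratio of the 460 was 0.35 in Mettl3-deficient and -0.93 in WT cells. The WT ratio was 2-fold or more below input for 204 of them (44.3%, against 5.23% of all genes), while the Mettl3-deficient ratio was 2-fold or more above input for 33 (7.17%, against 1.37%). Of the 183 on the lower side, 133 had ratios of opposite sign (72.7%), with medians of -0.37 in Mettl3-deficient and 0.87 in WT cells. The WT ratio was 2-fold or more above input for 66 of these (36.1%, against 3.69% of all genes) and the Mettl3-deficient ratio 2-fold or more below input for 29 (15.8%, against 1.45%). All of these shares use the columns that define the difference, so nothing is read from them.

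Seen from the ratios, depletion in WT cells alone was the largest class at this limit, while without a minimum enrichment in WT cells alone held more genes (762 against 707). Depletion in WT cells alone held 309 genes, 203 of which had a genotype difference of at least 2-fold, and its median ratios were -0.08 in Mettl3-deficient and -1.22 in WT cells. Enrichment in WT cells alone held 221 genes, of which 66 were 2-fold lower in the genotype difference, and their median ratios were 0.38 in Mettl3-deficient and 1.12 in WT cells. Enrichment in Mettl3-deficient cells alone held 75 genes (33 of them past 2-fold) and depletion there alone 71 genes (26 past 2-fold). Enrichment in both genotypes held 11 genes and depletion in both 20. No gene was 2-fold enriched in WT and 2-fold depleted in Mettl3-deficient cells. The reverse was true of 2, which are counted in both single-genotype classes, Rcc2, a chromatin-bound regulator of mitosis, and Mknk2, a kinase that phosphorylates the cap-binding protein Eif4e. These classes use the values that define the difference and describe it only.

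Rcc2 lay 2.29-fold above an input of 9.04 RPKM in m6A-tagged RNA of Mettl3-deficient cells, against 20.6 RPKM in m6A-tagged RNA and 71.4 RPKM in input of WT cells. Mknk2 had 23.6 and 11.1 RPKM in m6A-tagged and input RNA of Mettl3-deficient cells, against 61.6 and 138 RPKM in WT cells. For both, the input columns differed more between the genotypes than the m6A-tagged columns. The 11 genes enriched in both genotypes included Tcf15, a transcription factor reported in quiescent HSCs (log2 ratios of 1.54 in Mettl3-deficient and 1.08 in WT cells), the stress gene Gadd45g (1.25 and 1.40) and Rab35 (1.17 and 1.04). Those depleted in both included many ribosomal protein genes, with Ldha (-1.13 and -1.62), Gapdh (-1.22 and -1.44) and Prdx1 (-1.25 and -1.27) among the rest. Apart from the genes the rule on named genes gave, these examples were chosen after their values were seen.

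Both the m6A-tagged and the input columns carried the difference. Between genotypes, m6A-tagged RNA differed more than input for 302 of the 460 genes on the higher side (65.7%) and 125 of the 183 on the lower side (68.3%), against 58.7% of all genes. With a minimum mean of 50 RPKM this held for 115 of 170 genes on the higher side, but for 20 of 46 on the lower side, where input differed more for 26. On the higher side, m6A-tagged RNA was at least 2-fold higher in Mettl3-deficient cells for 187 genes (40.7%, against 6.02% of all genes) and input at least 2-fold lower for 101 (against 6.67% of all genes). Their median levels were 35.3 RPKM in Mettl3-deficient and 19.7 RPKM in WT m6A-tagged RNA, and 27.4 and 38.0 RPKM in the inputs. On the lower side, m6A-tagged RNA was at least 2-fold lower for 76 genes (41.5%, against 7.15% of all genes) and input at least 2-fold higher for 34 (18.6%, against 2.38%). Their median levels were 19.6 RPKM in Mettl3-deficient and 39.6 RPKM in WT m6A-tagged RNA, and 24.4 and 21.8 RPKM in the inputs. For 174 genes on the higher side and 73 on the lower side neither column reached 2-fold alone. These counts and shares use the columns that define the difference, so they describe it only.

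The unbound fraction, which does not enter the difference, ran the other way from m6A-tagged RNA. Unbound RNA of the 460 genes had a median of 27.8 RPKM in Mettl3-deficient and 49.2 RPKM in WT cells, and the median log2 change per gene was -0.80. For the 183 genes on the lower side the medians were 16.4 RPKM in Mettl3-deficient and 8.59 RPKM in WT cells, with a median log2 change of 0.84. Over all genes compared, they were 27.3 and 29.8 RPKM, with a median change of 0.02. Unbound lay above input in Mettl3-deficient cells for 56.5% and in WT cells for 75.4% of the genes on the higher side. On the lower side it did so for 32.2% in Mettl3-deficient and 21.9% in WT cells, against 46.0% and 48.1% of all genes. The unbound columns also enter the 10 RPKM limit, and these medians have no replicate check.

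**Figure D2:**
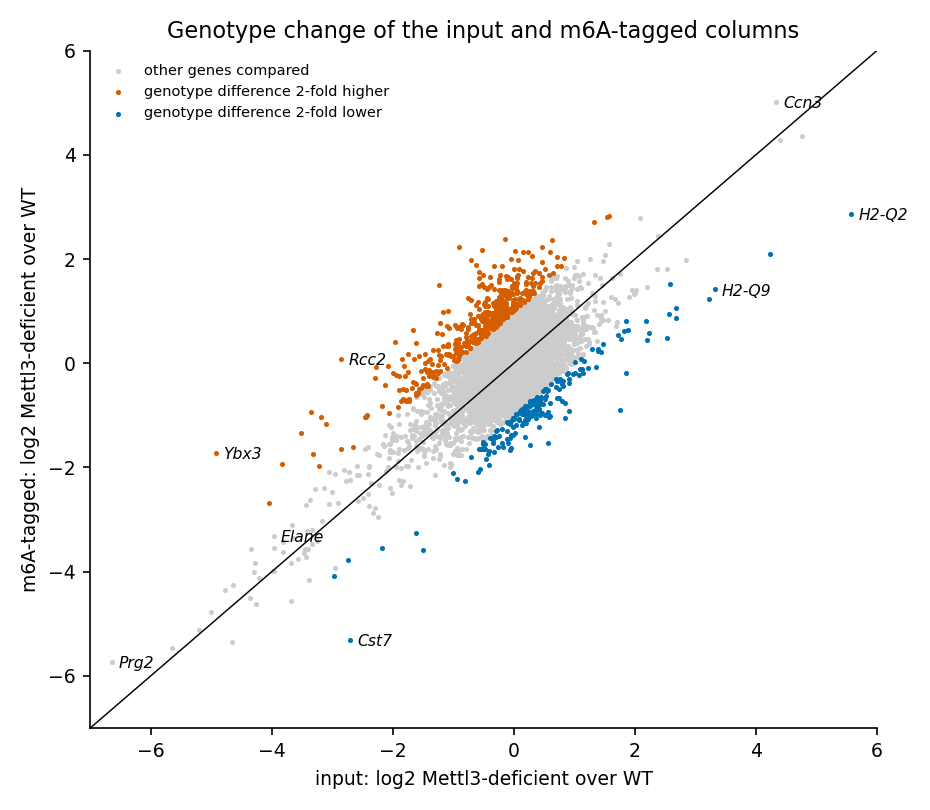
Log2 change of the input (x axis) and of the m6A-tagged column (y axis) between Mettl3-deficient and WT cells, each with 1 RPKM added, for the 6295 genes. Orange points had a genotype difference of 2-fold or more on the higher side (460) and blue points one on the lower side (183). Genes such as Prg2 and Elane differed greatly in both columns and by less than 2-fold in the ratio.

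The share of genes on the lower side was largest at low levels. Of genes with a mean of 10 up to 15 RPKM 5.11% were 2-fold lower, and of those with 100 up to 200 RPKM 1.04%, with 3.70% at 200 RPKM and above. The higher side held 7.43% of genes at 10 up to 15 RPKM, 8.34% at 50 up to 100 RPKM and 3.90% at 200 RPKM and above. Lower-side genes also had a shorter median genomic span (11734 bases) than higher-side genes (17131 bases) or all genes (15994 bases). With genes split into 5 groups by span, the shortest group had 62 genes 2-fold higher and 58 lower of 1258, and the next 100 and 37 of 1257. By chromosome, the higher side took 4.27% of genes on chromosome 14 to 9.64% on X, and the lower side 1.20% on chromosome 19 to 6.38% on chromosome 18, among chromosomes with more than 100 genes compared. Chromosome 17, which carries the H2 complex, had 18 genes on the lower side (4.95%).

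**Figure D3:**
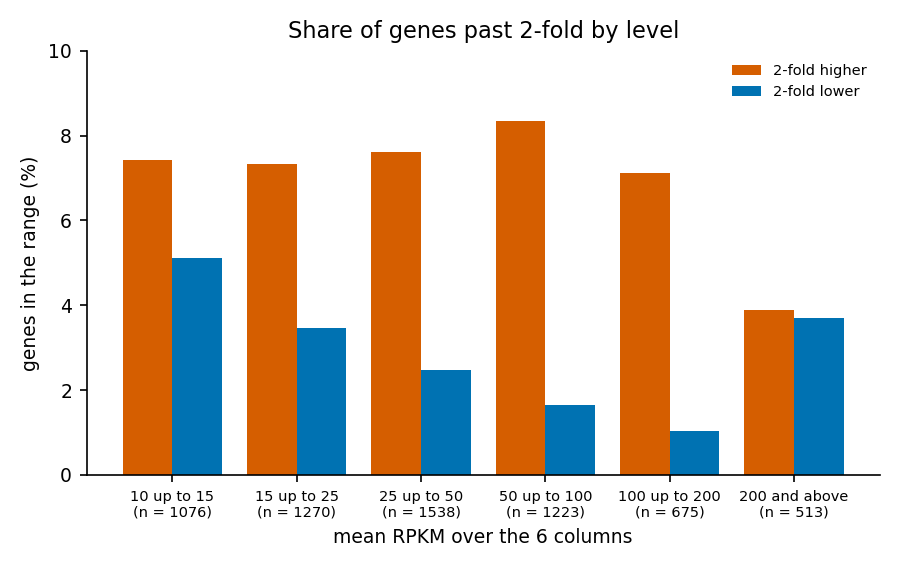
Share of genes (y axis, %) with a genotype difference of at least 2-fold on the higher side (orange) and lower side (blue), by mean RPKM over the 6 columns (x axis, with the number of genes). The lower-side share runs from 5.11% in the lowest range to 1.04% at 100 up to 200 RPKM and is 3.70% above.

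The lowest end of the genotype difference was held by MHC class I genes of the H2-Q group on chromosome 17. Most of these encode nonclassical class I proteins, among them Qa-2, which present peptides to a narrow set of T cells. H2-Q5 is annotated as a transcribed pseudogene. The 8 H2-Q genes compared had differences of -2.72 to -1.62, with a median of -2.02. H2-Q2, at -2.72, had 8.50 RPKM in m6A-tagged RNA and 60.4 RPKM in input of Mettl3-deficient cells, against 0.303 and 0.280 RPKM in WT cells. It and H2-Q4 reached the 10 RPKM limit through Mettl3-deficient cells, and adding 1 RPKM holds the WT ratio of H2-Q2 near 0. The other 6 had WT means of at least 10 RPKM and differences of -2.66 to -1.62. The genes are related copies, so reads may have been split or shared among them and single members are uncertain. H2-Q7 had 415 RPKM in m6A-tagged RNA and 781 RPKM in input of Mettl3-deficient cells, against 198 and 121 RPKM in WT cells. H2-Q5 had 40.9 and 106 RPKM in Mettl3-deficient m6A-tagged and input RNA, against 21.9 and 15.7 RPKM in WT cells. Both fractions were higher in Mettl3-deficient cells and the input more so. H2-Q4 had 19.7 and 79.9 RPKM, against 3.85 and 3.30 RPKM in WT cells. H2-Q1 was the exception among the 8, its m6A-tagged RNA being 44.1 RPKM in Mettl3-deficient and 83.2 RPKM in WT cells. Over the list the median log2 change was 2.95 in input and 1.14 in m6A-tagged RNA.

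The 250 bases before the start site of H2-Q genes are shown because these genes moved together, and their sequences show how alike the copies are. Promoters were matched in RefSeq (GRCm38.p6, the assembly behind mm10) for 4 of the 8. Capitals mark matches to GTTTCNNTT, a core of the interferon-stimulated response element, and to GGGNNTTCC, a form of the NF-kappaB site, both known from class I promoters. Both strands of windows of 250 bases before to 50 bases after each start site were searched, and matches of the motifs do not overlap here.
H2-Q2, chr17:35342057-35342306, plus strand: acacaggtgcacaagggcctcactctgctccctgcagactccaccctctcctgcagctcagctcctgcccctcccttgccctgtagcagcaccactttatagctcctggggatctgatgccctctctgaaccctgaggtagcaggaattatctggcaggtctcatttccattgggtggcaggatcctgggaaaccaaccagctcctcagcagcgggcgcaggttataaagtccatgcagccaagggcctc
H2-Q4, chr17:35379367-35379616, plus strand: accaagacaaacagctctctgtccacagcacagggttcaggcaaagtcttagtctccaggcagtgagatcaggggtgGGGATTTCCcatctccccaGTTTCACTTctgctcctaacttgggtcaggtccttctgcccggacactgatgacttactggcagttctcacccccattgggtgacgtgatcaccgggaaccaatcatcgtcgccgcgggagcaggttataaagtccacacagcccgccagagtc
H2-Q7, chr17:35438905-35439154, plus strand: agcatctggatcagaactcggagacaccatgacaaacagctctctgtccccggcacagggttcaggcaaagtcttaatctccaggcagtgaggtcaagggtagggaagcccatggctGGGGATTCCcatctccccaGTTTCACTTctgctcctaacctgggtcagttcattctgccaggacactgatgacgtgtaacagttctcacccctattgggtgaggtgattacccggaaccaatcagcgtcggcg
Counted from the start site, the response element match lay at position -154 in H2-Q4 and -114 in H2-Q7, and the NF-kappaB match at -173 in H2-Q4 and -133 in H2-Q7. The window of H2-Q2 had neither. Over 32851 promoter windows of the same length, 5.77% held the first motif and 5.82% the second. In aligned bases of the windows, H2-Q6 was 97.7% identical to H2-Q7, H2-Q4 87.3% and H2-Q2 64.4%. The windows of H2-K1 and H2-D1 also held both motifs. A match describes these letters and no binding was measured.

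Classical class I genes lay on the same side, nearer 0. H2-K1 and H2-D1, which present peptides to cytotoxic T cells, had differences of -1.18 and -1.21, and their shared light chain B2m had -1.12. H2-K1 had 2058 RPKM in m6A-tagged RNA and 3768 RPKM in input of Mettl3-deficient cells, against 1414 and 1143 RPKM in WT cells. B2m had 2130 and 3893 RPKM in Mettl3-deficient m6A-tagged and input RNA, against 1752 and 1478 RPKM in WT cells. Both genes were thus higher in both Mettl3-deficient fractions, and their ratio to input lay below 0 in Mettl3-deficient and above 0 in WT cells. H2-T23, which encodes Qa-1, a ligand of NK cell receptors, had a difference of -1.33, and H2-K2, a transcribed pseudogene of the complex, one of -1.66. The list of class I antigen presentation had a median of -0.46 over 16 genes. Of these, 4 were at least 2-fold lower (25.0%, against 2.91% of all genes) and none higher (against 7.31%). The peptide transporter subunits Tap1 and Tap2 had -0.50 and -0.07, and the immunoproteasome subunits Psmb8 and Psmb10 had 0.09 and 0.54.

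Interferon-stimulated genes had a median of -0.24 over 37 genes. Of these, 3 were at least 2-fold lower (8.11%, against 2.91% of all genes) and 0 higher (against 7.31%). Rtp4, a chaperone of membrane receptors, had 56.0 RPKM in m6A-tagged RNA and 49.7 RPKM in input of Mettl3-deficient cells, against 58.9 and 18.7 RPKM in WT cells, a difference of -1.44. The GTPase gene Igtp had 151 and 148 RPKM, against 96.8 and 39.4 RPKM in WT cells, a difference of -1.25. In both genes input was the column that differed more. Cmpk2, a mitochondrial nucleotide kinase, had 14.2 and 11.2 RPKM, against 35.7 and 13.0 RPKM in WT cells, so that here m6A-tagged RNA differed more. Zbp1, a sensor of Z-form nucleic acid, lay at the other end of the list, with a difference of 0.92. The median input change of the list was 0.64 and its median m6A-tagged change 0.48.

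Genes of ribosomes and of small nucleolar RNAs, which guide the modification of ribosomal RNA, took many of the other low places. Of 79 cytosolic ribosomal protein genes, 8 were at least 2-fold lower (10.1%) and 0 higher, with a median of -0.30 and 62 below 0. Their median log2 ratio lay well below input in both genotypes, at -0.99 in Mettl3-deficient and -0.72 in WT cells. Rpl11, which also binds and restrains Mdm2, had 74.3 RPKM in m6A-tagged RNA and 302 RPKM in input of Mettl3-deficient cells, against 84.3 and 82.5 RPKM in WT cells. Rps29 had 13.1 and 62.3 RPKM, against 9.31 and 12.7 RPKM in WT cells. In both, input was higher in Mettl3-deficient cells by more than 2-fold. Rpl39 differed in another way, with 27.3 and 86.6 RPKM, against 132 and 167 RPKM in WT cells, both Mettl3-deficient columns being lower. Processed copies of ribosomal protein genes can share reads with them. Mitochondrial ribosomal protein genes had a median of -0.13 over 78, with 3 higher (Mrpl23, Mrpl49 and Mrpl21, by 1.01 to 1.30) and 0 lower. The higher share was 3.85%, against 7.31% of all genes, of which 2.91% were lower.

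Of 22 small nucleolar RNAs, 5 were at least 2-fold lower (22.7%, against 2.91% of all genes) and 2 higher (9.09%, against 7.31%). Their median was 0.15. Only Snord95 (-2.09), Snora64 (-0.99) and Snord104 (-0.56) had a mean of at least 50 RPKM, and their median of -0.99 is the value of Snora64. Snord69 had 12.2 RPKM in m6A-tagged RNA and 29.6 RPKM in input of Mettl3-deficient cells, against 26.3 and 16.0 RPKM in WT cells. Snord72 had 5.72 and 11.0 RPKM, against 20.4 and 11.6 RPKM in WT cells. In both, m6A-tagged RNA was lower in Mettl3-deficient cells. Snord49a was highest in the list, with 18.8 and 11.5 RPKM, against 8.33 and 16.3 RPKM in WT cells, a difference of 1.56. These RNAs lie in introns of host genes and lack a poly(A) tail, so reads of the host precursor cannot be told apart from theirs. The 13 host genes of the list had a median of -0.12, with Snhg3 at -1.43 and Snhg16 at 1.45.

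**Figure D4:**
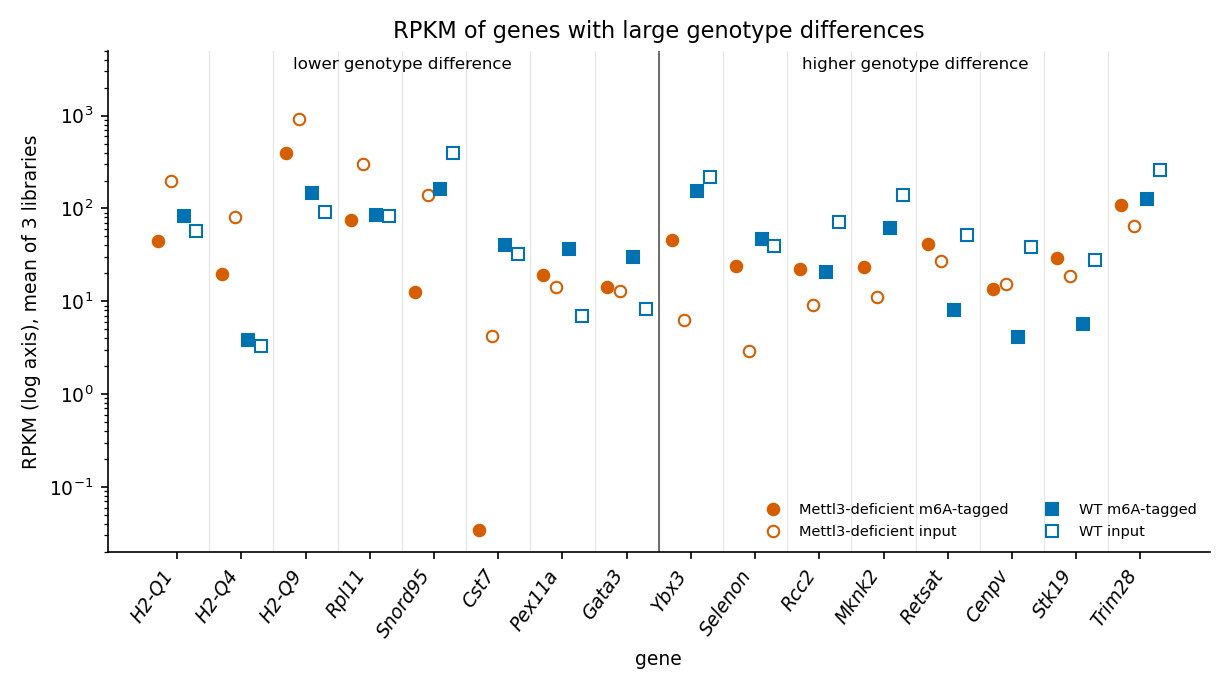
RPKM (log axis, mean of 3 libraries) of 16 genes in Mettl3-deficient m6A-tagged (filled circle) and input (open circle) and WT m6A-tagged (filled square) and input RNA (open square). On the left, input exceeds m6A-tagged RNA by more in Mettl3-deficient than in WT cells, or m6A-tagged exceeds input by less. On the right the relation is reversed, as for Ybx3, with 45.9 over 6.24 RPKM in Mettl3-deficient and 154 under 218 RPKM in WT cells.

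Other genes among the 20 lowest were of varied function. Pex11a, which acts in peroxisome division, had 19.0 RPKM in m6A-tagged RNA and 14.2 RPKM in input of Mettl3-deficient cells, against 36.9 and 7.02 RPKM in WT cells. Brms1l, a subunit of the Sin3 histone deacetylase complex, had 10.3 and 20.6 RPKM, against 32.5 and 17.1 RPKM in WT cells. Elp6, a subunit of the Elongator complex that modifies transfer RNA, had 15.4 and 15.2 RPKM, against 37.1 and 11.1 RPKM in WT cells. In all 3, m6A-tagged RNA was lower in Mettl3-deficient cells and input was higher. Ccdc102a had 35.8 and 25.4 RPKM, against 18.2 and 3.48 RPKM in WT cells, both columns being higher in Mettl3-deficient cells. The transcribed pseudogene Gm15421 had 7.87 and 21.2 RPKM, against 84.1 and 67.0 RPKM in WT cells, both being lower.

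Cst7, a cysteine protease inhibitor of cytotoxic and myeloid cells, was the lowest gene that is no class I gene, with a difference of -2.61, which was -5.28 with 0.1 RPKM added in place of 1 and -1.12 with 5. Its reads could be solved in Mettl3-deficient libraries. There were 0 reads in each of the 3 m6A-tagged libraries, and 12, 183 and 79 reads in the 3 input libraries. A count of 0 allows up to 3 reads over the m6A-tagged group (0.0333 reads per M reads), a limit that covers counting error only. A single input library held most of the input reads, with 8.29 reads per M reads against 1.27 and 2.63 in the others. In WT cells Cst7 had 39.9 RPKM in m6A-tagged RNA and 32.7 RPKM in input, and it reached the 10 RPKM limit through WT cells. T cell and NK cell markers, 7 genes that include Cst7, summed to 51.8 RPKM in Mettl3-deficient and 236 RPKM in WT input, with 4 of the 7 under 1 RPKM in each, and the part of this in the result was not tested. The authors' deposited table carries a remark naming Cst7 and Chchd2 as differing between eluted and input RNA, but not between flow-through and input. Chchd2, a mitochondrial intermembrane protein gene, had a genotype difference of -0.78.

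Of 11 microRNA genes compared, 1 was 2-fold lower and 1 higher (9.09% each, against 2.91% and 7.31% of all genes). Reads of longer transcripts over a hairpin may be counted for it, and hairpin values are not levels of the mature RNA. Mature sequences are shown for these 2 (8 of the 11 matched in RefSeq, GRCm38.p6), with the seed, bases 2 to 8, in capitals.
mmu-miR-1896, chr13:21445209-21445230, plus strand: cUCUCUGAuggugggugaggag
mmu-miR-1966-3p, chr8:105615521-105615543, plus strand: uUUCUGACucaacucucccuuag
The 2 have different seeds. Mir1896 had a difference of -1.19. Its m6A-tagged reads in the 3 libraries were 12, 57 and 17 in Mettl3-deficient and 46, 18 and 238 in WT cells, and its input reads 3, 24 and 29 in Mettl3-deficient and 31, 45 and 29 in WT cells. A single WT library thus held most of its WT m6A-tagged reads, and the groups overlapped. Mir1966 had 127 RPKM in m6A-tagged RNA and 68.1 RPKM in input of Mettl3-deficient cells, against 89.2 and 119 RPKM in WT cells, a difference of 1.29.

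The highest end was led by Ybx3, a cold-shock RNA-binding protein, and Retsat, a retinol saturase, with differences of 3.20 and 3.13, the only genes past 8-fold. They differed in kind. Ybx3 input was 6.24 RPKM in Mettl3-deficient and 218 RPKM in WT cells, while its m6A-tagged RNA was 45.9 and 154 RPKM. Retsat had 41.3 RPKM in m6A-tagged RNA and 27.3 RPKM in input of Mettl3-deficient cells, against 7.97 and 51.6 RPKM in WT cells. For Ybx3 input was the column that differed more, and for Retsat m6A-tagged RNA.

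Among ranks 11 to 20 from the top, Arl8a, a GTPase that moves lysosomes, had 10.2 RPKM in m6A-tagged RNA and 11.3 RPKM in input of Mettl3-deficient cells, against 2.35 and 17.4 RPKM in WT cells. Alkbh2, a DNA repair demethylase, had 16.2 and 10.1 RPKM, against 4.35 and 14.8 RPKM in WT cells. Atp6v1h, a regulatory subunit of the vacuolar proton pump, had 26.4 and 36.3 RPKM, against 6.50 and 45.8 RPKM in WT cells. In these 3 m6A-tagged RNA was higher in Mettl3-deficient cells, while input was lower by less than 2-fold. Immp2l, a mitochondrial inner membrane peptidase, and Kctd13, an adaptor of a Cul3 ubiquitin ligase, also had inputs within 2-fold of each other, with m6A-tagged RNA of 20.0 and 18.5 RPKM in Mettl3-deficient cells against 5.74 and 3.37 RPKM in WT cells. Rcor1, the CoREST scaffold of a histone demethylase complex, did not, its input being 1.69 RPKM in Mettl3-deficient and 23.5 RPKM in WT cells. Rcor1 reached the 10 RPKM limit through WT cells. Smarcd2, a chromatin remodelling subunit needed for granulocyte maturation, had 79.7 and 44.7 RPKM in m6A-tagged and input RNA, against 39.9 and 102 RPKM in WT cells. Npm3, a histone chaperone, and its transcribed pseudogene Npm3-ps1 had differences of 2.31 and 2.20, and reads may have been shared between these copies.

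Among genes that averaged 100 RPKM or more, Mad2l2, a subunit of translesion polymerase and of the shieldin complex, stood highest, with 77.2 RPKM in m6A-tagged RNA and 83.1 RPKM in input of Mettl3-deficient cells, against 18.9 and 79.0 RPKM in WT cells. Trim28, the corepressor that zinc finger proteins recruit to silence endogenous retroviruses, had 109 and 64.5 RPKM, against 125 and 259 RPKM in WT cells. Xab2, a splicing and repair factor, had 161 and 126 RPKM, against 51.2 and 122 RPKM in WT cells. For Mad2l2 and Xab2 the inputs were close and m6A-tagged RNA differed, while for Trim28 input differed. Ngdn, Pold1, Nsmce4a, Tle5, Rnf10 and Dctn3 were also among the 10 highest, with differences of 1.40 to 1.64. The 10 lowest of this level included, besides Snord95, Rpl11 and class I genes, Rpl22l1 and BC028528, with differences of -1.47 and -1.39.

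HSC genes lay mostly on the lower side of 0, 26 of 37 being negative, with a median of -0.32 against 0.04 for all genes. Only 2 of the 37 passed 2-fold, both lower (5.41%). Of all genes, 10.2% passed it either way and 2.91% were lower. Gata3, a transcription factor with roles in T cells and in HSCs, had 14.1 RPKM in m6A-tagged RNA and 12.9 RPKM in input of Mettl3-deficient cells, against 29.8 and 8.26 RPKM in WT cells. Txnip, which binds thioredoxin and limits glucose uptake, had 330 and 480 RPKM, against 568 and 383 RPKM in WT cells. In both, m6A-tagged RNA was lower and input higher in Mettl3-deficient cells. Slamf1, which encodes the sorting antigen CD150, and Angpt1, a ligand of the receptor Tek, had -0.96 and -0.93. Above 0, Cdkn1c, a cell cycle inhibitor, had 0.89. The median log2 ratio of the list was 0.07 in Mettl3-deficient and 0.38 in WT cells. Its median log2 change between genotypes was 0.24 in input and -0.08 in m6A-tagged RNA.

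Regulators of m6A and reported targets had members on both sides of 0. Of 8 writers and readers compared (no eraser was among the genes compared), 7 were below 0, with a median of -0.30. Among them 1 passed 2-fold (12.5%, against 10.2% of all genes either way), the nuclear RNA-binding protein gene Hnrnpa2b1. It had 245 RPKM in m6A-tagged RNA and 413 RPKM in input of Mettl3-deficient cells, against 383 and 316 RPKM in WT cells. The nuclear reader gene Ythdc1 had -0.75, and the cytoplasmic readers Ythdf1 and Ythdf2 had -0.43 and -0.41. Of 13 transcripts reported as m6A targets in blood cells, 0 passed 2-fold, against 10.2% of all genes. Their median was 0.19 and their differences ran from -0.74 to 0.99. The feedback inhibitor gene Socs1 had 27.1 and 10.4 RPKM in m6A-tagged and input RNA of Mettl3-deficient cells, against 7.87 and 6.19 RPKM in WT cells, a difference of 0.99. Myc, a driver of growth and ribosome production, had 137 and 98.0 RPKM, against 174 and 117 RPKM in WT cells, a difference of -0.08. Egr1, Stat5a and Cited2 lay above 0 (0.91, 0.90 and 0.83), while Mdm2, Cish and Gata2 lay below (-0.74, -0.61 and -0.54). Immediate early and short-lived transcripts had a median of 0.00 over 26 genes, with Cebpb highest at 1.58 and Sertad1 lowest at -1.13.

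Genes of replication and mitosis lay on both sides of 0, with a median of -0.04 over 61. Of these, 8 were at least 2-fold higher (13.1%, against 7.31% of all genes) and 2 lower (3.28%, against 2.91%). Besides Rcc2, the higher genes included the centromere protein gene Cenpv, the catalytic subunit gene of DNA polymerase delta Pold1, and the anaphase activator Cdc20, with differences of 2.74, 1.47 and 1.22. Pold1 had 125 RPKM in m6A-tagged RNA and 97.7 RPKM in input of Mettl3-deficient cells, against 49.7 and 109 RPKM in WT cells. The lower genes were Orc5 and Orc2, subunits of the origin recognition complex, at -1.49 and -1.04. Orc5 had 22.2 and 30.3 RPKM, against 97.0 and 46.1 RPKM in WT cells. Thus m6A-tagged RNA differed more than input both for Pold1 and for Orc5, in opposite directions. Cdc20 and Orc2 were named after their values were seen.

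Of 14 selenoprotein genes, whose products hold selenocysteine, 3 were higher (21.4%, against 7.31% of all genes), Selenon, Txnrd2 and Selenos, and the median was 0.35. Selenon had 24.1 RPKM in m6A-tagged RNA and 2.91 RPKM in input of Mettl3-deficient cells, against 47.0 and 39.2 RPKM in WT cells. Txnrd2, the mitochondrial thioredoxin reductase gene, had 52.6 and 44.4 RPKM, against 23.6 and 51.3 RPKM in WT cells. Thus input differed more for Selenon and m6A-tagged RNA for Txnrd2. Selenon reached the 10 RPKM limit through WT cells. Of 45 Rab and Arf small GTPase genes, which direct vesicle traffic, 6 were higher (13.3%), Arl8a, Arf2, Arf6, Rab4b, Rab10 and Rab1b. Rab13 was the 1 lower gene (2.22%, against 2.91% of all genes). Their median was 0.10 and was -0.00 under upper-quartile scaling. Shares near that of all genes were seen for 32 proteasome genes, of which 2 were higher (6.25%), Psmc4 and Psmb4 (1.10 and 1.04), with a median of 0.21, and for 21 corepressor and chromatin genes, of which 2 were higher (9.52%), Rcor1 and Suds3 (2.15 and 1.36), with a median of 0.20. The 17 glycolysis genes had a median of 0.35 with 0 past 2-fold, led by the phosphofructokinase gene Pfkm at 0.90.

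Zinc finger protein genes of the Zfp series had a median of -0.22 over 47, with 5 at least 2-fold lower (10.6%) and 2 higher (4.26%). Zfp984 had 8.80 RPKM in m6A-tagged RNA and 17.7 RPKM in input of Mettl3-deficient cells, against 29.1 and 18.3 RPKM in WT cells. Zfp87 had 8.02 and 8.01 RPKM, against 28.0 and 11.0 RPKM in WT cells. In both, m6A-tagged RNA was the column that differed more, and it was lower in Mettl3-deficient cells. Zfp414 was highest, at 1.24. Solute carriers had a median of -0.17 over 84, from the zinc transporter gene Slc30a7 at -1.31 to Slc25a14 at 1.72. Of them, 5 were higher (5.95%) and 2 lower (2.38%), against 7.31% and 2.91% of all genes. Chaperone genes had a median of -0.27 over 30 with 0 past 2-fold, the chaperonin subunits Cct5 and Cct4 lying above 0 (0.85 and 0.77) and Dnaja2 below (-0.99).

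Further lists had medians of -0.18 to 0.08, against 0.04 for all genes. Genes of MYC targets and ribosome production had a median of -0.18 over 60. Of these, 2 were higher (3.33%), the polyamine enzyme gene Odc1 (1.34) and Rrp9 (1.05), and 1 lower (1.67%), the cap-binding protein gene Eif4e (-1.13). Nuclear oxidative phosphorylation genes had a median of 0.00 over 78, with Ndufs7 at 1.01 and Cox7a2l at -1.08. Splicing factor genes had a median of 0.03 over 51, with 4 higher (7.84%) and 3 lower (5.88%). Translation factor genes had one of 0.04 over 40, with 3 of each (7.50%). Of all genes, 7.31% were 2-fold higher and 2.91% lower. Proton pump and lysosome genes had a median of 0.04 over 45, aminoacyl-tRNA synthetase genes 0.08 over 32 and abundant cytoskeleton genes 0.01 over 29. Under upper-quartile scaling the medians of these last 5 lists fell below 0, between -0.09 and -0.02, as did 4 of them under median-ratio scaling (-0.05 to -0.03), with aminoacyl-tRNA synthetase genes at 0.01. Histone genes had a median of -0.05 over 13 and p53 target genes one of -0.05 over 12.

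Lists of granulocyte genes had large differences between the inputs. The 18 neutrophil and promyelocyte genes had a median input change of -3.44 and a median m6A-tagged change of -3.41, and a median genotype difference of 0.20 with 0 past 2-fold. For 5 of them the mean over the Mettl3-deficient columns was under 10 RPKM. Elane, neutrophil elastase, had 41.2 RPKM in m6A-tagged RNA and 36.8 RPKM in input of Mettl3-deficient cells, against 421 and 592 RPKM in WT cells. The 8 eosinophil and basophil genes had a median input change of -4.51. Of these, 5 reached the limit through WT cells, with Mettl3-deficient inputs of 0.170 to 0.826 RPKM. Adding 1 RPKM holds such a ratio near 0, so the list's genotype differences (-0.69 to 0.92) say little about these 5 genes. Prg2, the eosinophil major basic protein, had 11.5 and 5.52 RPKM, against 664 and 655 RPKM in WT cells, a difference of 0.92. Erythroid genes had a median of 0.12 over 19, with 1 past 2-fold (5.26%, against 10.2% of all genes either way), Gata1, at 1.36. Megakaryocyte genes had a median of 0.14 over 15 with 0 past 2-fold. Of 9 monocyte and macrophage genes, Cd68 was higher (1.27) and the complement gene C1qb lower (-1.53).

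**Figure D5:**
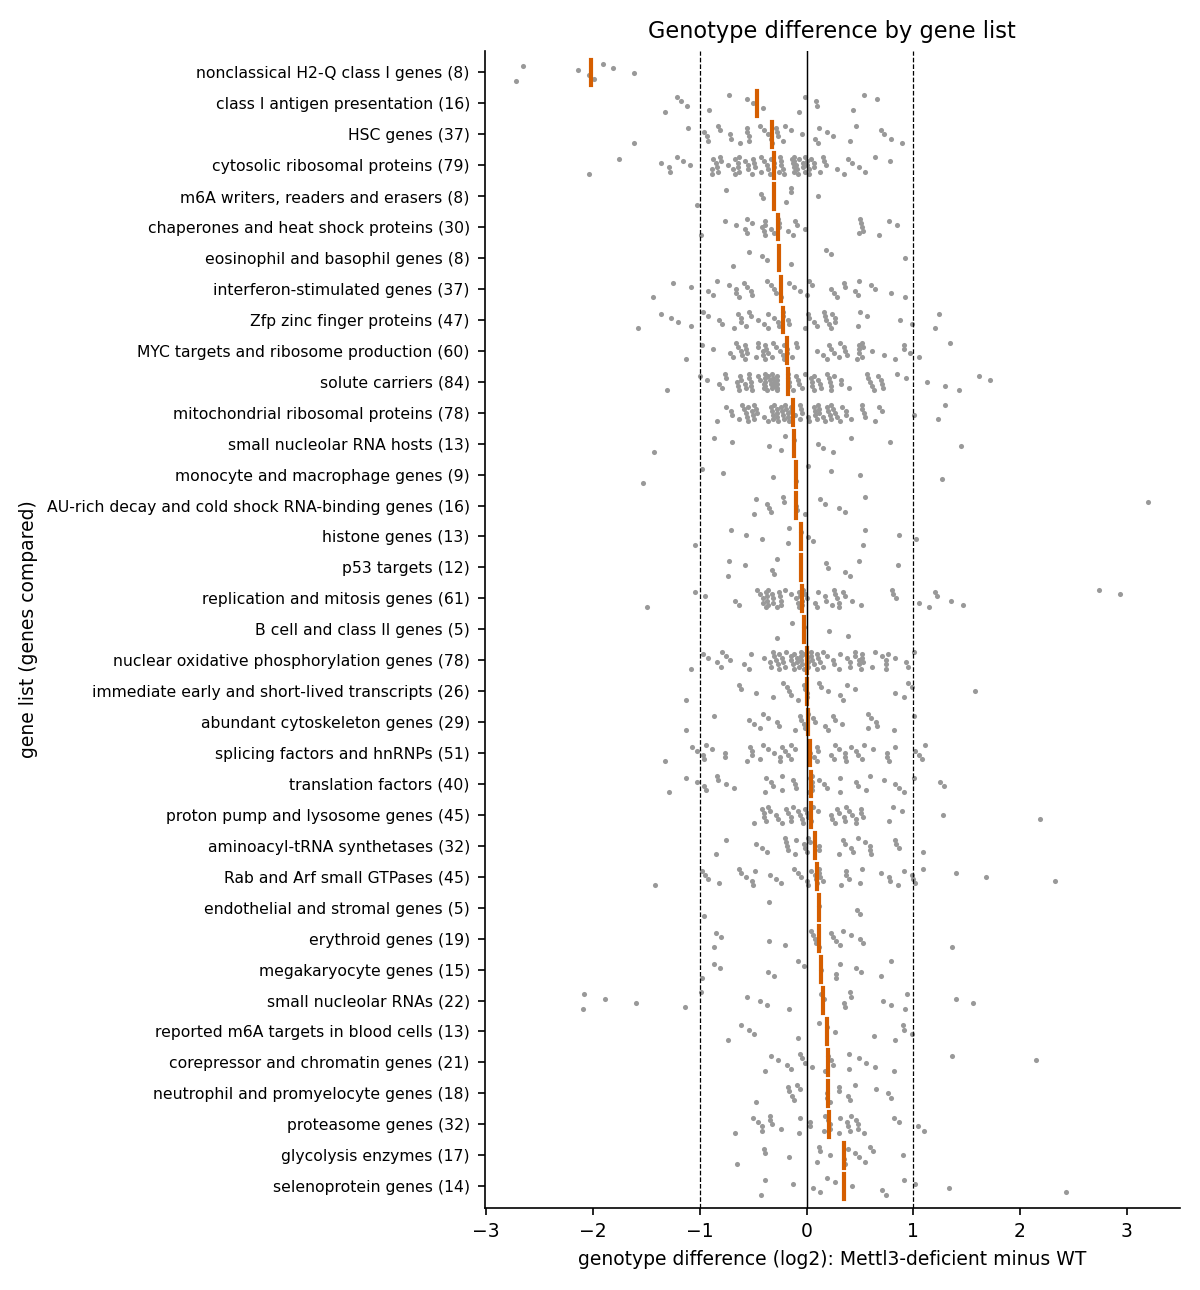
Genotype difference (log2, x axis) of each member (grey points) of the gene lists with at least 5 genes compared (y axis, number of genes in brackets), with the median in orange and dashed lines at 2-fold. The H2-Q list lies wholly below the lower dashed line, and the medians of the other lists run from -0.46 to 0.35.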

How the data were processed

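RNA of sorted HSCs was measured as input, unbound and m6A-tagged fractions, amplified by Smart-seq2 and read as 150-base pairs, per the labels' protocols. No fragmentation step is described, so values are per gene. Per the submitters' processing notes, the genome build was mm10 and the tools named are Picard and edgeR. Roles, versions and aligner were not given in the sources used here. Deposited by the authors were 2 tables of RPKM, with 1 column per group that is the mean of 3 libraries. The values show 1 read added per gene and library. Library depths and the reads of low genes were solved from genes without reads.

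From these, log2 ratios with 1 RPKM added were computed in Python 3.11.15 with numpy 2.4.6 and pandas 2.3.3, for genes of mean 10 RPKM or more. Planned limma tests needed single libraries, so no p-value is given. The scripts were tested on simulated data. The labels' 3 biological replicates cannot be told apart in the columns.

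The members and gene lists were chosen with earlier results of these data known. Named genes are the 20 highest and 20 lowest, the 10 highest and lowest of mean 100 RPKM or more, the 5 largest per class, the 4 farthest from 0 of each list (all where at most 5 were compared), Mettl3 and Mettl14. A few of these are not reported here. Others were named after their values were seen. Alternatives were the added value, the minimum and the column scaling.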

Additional observations from a re-analysis of the deposited data

How the results depend on the processing

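Under the 7 alternatives every list median but 1 moved by less than 1.5-fold (0.58 in log2). This limit is wider than most list medians, so a median could change sign within it. Column scaling changed the sign for splicing factor, translation factor, proton pump and lysosome, aminoacyl-tRNA synthetase and abundant cytoskeleton genes. The 189 named genes kept the sign of their genotype difference wherever they were compared (96 at a minimum mean of 50 RPKM), except Lrg1, at 0.79 and at -0.07 with 5 RPKM added. Of the 112 past 2-fold, 15 were under it in at least 1 alternative, 12 of them with 5 RPKM added, 7 with median-ratio scaling of the columns and 9 when upper quartiles were scaled. Cst7, at -2.61, had -5.28 with 0.1 RPKM and -1.12 with 5 RPKM added, and in all 2 named genes moved by more than 1.5-fold with 0.1 RPKM and 16 with 5 RPKM added. Counts moved more. With 5 RPKM added, 306 genes were 2-fold higher and 115 lower. Depletion in WT alone held 200 genes, enrichment in WT alone 114 and enrichment in Mettl3-deficient cells alone 30. Input differed more for 99 higher and 38 lower genes, and m6A-tagged RNA for 77 lower genes. Without a minimum (23038 genes), 1158 were higher and 782 lower, the classes held 762 (enriched, WT), 707 (depleted, WT), 235 (enriched, Mettl3-deficient) and 121 genes (depleted, Mettl3-deficient), m6A-tagged RNA differed more for 727 higher and 660 lower genes, and input for 431 and 122. With a minimum mean of 50 RPKM (2411 genes), 170 were higher and 46 lower, the first 3 classes held 40, 139 and 15, m6A-tagged RNA differed more for 115 and 20, and input for 55 and 26. The median of small nucleolar RNAs at this minimum was -0.99, from Snord95, Snora64 and Snord104 alone. As shares of the genes compared, the higher side was then 7.05% and the lower 1.91%. Enrichment in Mettl3-deficient cells alone held 47 genes with median-ratio scaling and 48 with upper-quartile scaling, and with the second scaling 282 genes were lower, with m6A-tagged RNA differing more for 193 and input for 89. The cause of these shifts was not tested, except that a larger added value shrinks ratios and a minimum changes how many genes are compared. No paired analysis was possible because each column pools the 3 libraries of its group. Leaving out replicates and the replicate block were not run for the same reason. Without single libraries, the precision of a difference is unknown.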
